A study of Arabidopsis thaliana with 2 samples.

Results

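SPL3 (AT2G33810), SPL4 (AT1G53160), SPL5 (AT3G15270), SPL9 (AT2G42200) and SPL15 (AT3G57920) are 5 Arabidopsis thaliana genes for SQUAMOSA PROMOTER BINDING PROTEIN-LIKE (SPL) transcription factors that act in the floral transition, and the sites listed around them for the flower regulator LEAFY (LFY) are described here. LFY sites were taken as the listed intervals that overlapped a gene body or the 3 kb on either side of it. The intended window was the gene body with 3 kb upstream and 1 kb downstream, but the gene table used here carries no strand, so the wider window was applied to both sides and every site is given with its distance to both ends of the gene. This rule found 10 intervals, namely 0 of the 4882 intervals of the amplified-DNA list and 10 of the 22514 intervals of the native-DNA list.

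The intervals come from DNA affinity purification sequencing, in which a tagged protein made in vitro is mixed with sheared genomic DNA and the bound fragments are recovered and sequenced. The amplified group (ampDAP) used genomic DNA copied by PCR, which carries no cytosine methylation, with seedlings aged 2 weeks as the labelled source and no transgene named. The native group (DAP) used sheared genomic DNA taken directly from plants, which keeps its methylation, and its labelled source was seedlings of the same age from the 35S::LFY line CA26 #15, a single line in which LFY is driven by the 35S promoter of cauliflower mosaic virus, active in most plant tissues. In both groups LFY carried the tag labelled 5XMyC and was made with a TnT in vitro transcription and translation system, and the plants grew under long days on Murashige and Skoog medium at 0.5 strength. There is 1 library of each group, so no replicate error can be given, and the kind of DNA cannot be told apart from the plant line or from the library. Each list entry is a position 400 bp wide with no height or score, the depth behind it is unknown, and a site missing from the ampDAP list, the shorter one, may still have been bound.

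SPL proteins bind DNA through a conserved SBP domain. In young plants microRNA miR156 represses many of the SPL genes, and as miR156 declines with age the SPL proteins accumulate and promote flowering. SPL3, SPL4 and SPL5 encode small proteins and promote floral meristem identity, partly through the genes LFY, AP1 and FUL. SPL9 and SPL15 encode larger proteins that act on MIR172 and MADS-box genes such as SOC1 and FUL in the shoot apex. LFY itself acts at the same step, as the factor that turns new lateral meristems into flowers.

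On amplified DNA, LFY sites were listed at 0 of the 5 SPL genes, and on native DNA at all 5 of them. The sites at SPL4, SPL9 and SPL15 depend on the window and on the unknown strand: 2 of the 5 genes, SPL3 and SPL5, had a DAP interval within 1 kb of the body, and with 3 kb on the lower and 1 kb on the higher side 3 did. SPL3 had 0 ampDAP and 4 DAP intervals, SPL4 had 0 and 2, SPL5 had 0 and 2, SPL9 had 0 and 1, and SPL15 had 0 and 1. Across all 27444 protein-coding genes of the nuclear chromosomes, the same window held an ampDAP interval at 32.6% of genes. The exact 95% interval was 32.0 to 33.1%, which covers counting error only and treats genes as independent. The window held a DAP interval at 82.3% of genes (81.8 to 82.7%). A DAP interval at 5 of 5 genes is therefore close to what most genes showed, and genes with 0 ampDAP intervals were the majority of the genome (67.4%). Among genes with a DAP interval, 60.7% had no ampDAP interval in the window. A site listed on both kinds of DNA, with midpoints within 200 bp, was present at 0 of the 5 SPL genes, against 31.6% of all protein-coding genes. The 5 genes were chosen with earlier results of these data known.

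**Figure D1:**
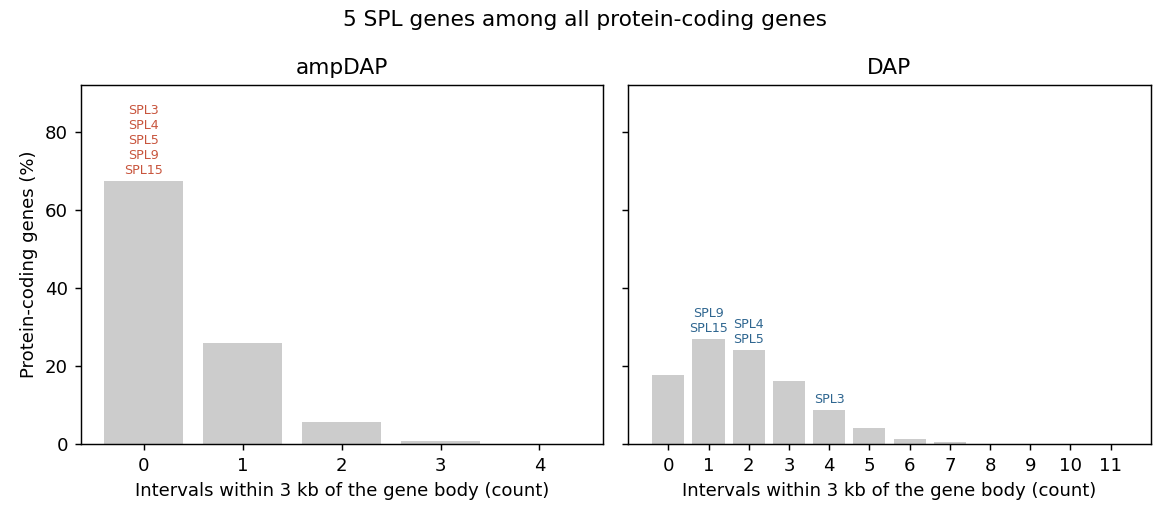
Share of all 27444 protein-coding genes (vertical axis, percent) with a given number of listed intervals within 3 kb of the gene body (horizontal axis), for the ampDAP list (left) and the DAP list (right). Labels above the bars place the 5 SPL genes: all 5 stand at 0 ampDAP intervals, and in the DAP list SPL9 and SPL15 stand at 1, SPL4 and SPL5 at 2 and SPL3 at 4.

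The windows of the 5 genes cover 38.8 kb. At the mean density of each list over the chromosomes (0.0410 ampDAP and 0.189 DAP intervals per kb), 1.59 ampDAP and 7.33 DAP intervals would lie in that length, against 0 and 10 listed. That density takes in stretches far from any gene. Over all protein-coding genes the mean was 0.402 ampDAP and 1.94 DAP intervals per window, so 10 DAP intervals at 5 genes lie near the gene mean.

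SPL3 had the most sites of the 5 genes, and most of them lay on the gene or at its edge. Its first DAP site lay at chr2:14304638-14305037 (TAIR10, the build in the submitters' processing notes), with its midpoint 164 bp outside the lower-coordinate end of the gene. The second site at chr2:14304943-14305342 had its midpoint inside the gene, 141 bp from that end, and overlapped the first by 95 bp. The third site at chr2:14305372-14305771 lay wholly inside the gene, 570 bp from the lower and 501 bp from the higher end. These 3 sites lie close together, from outside the lower end into the middle of the gene, with spacings of 305 and 429 bp between midpoints and a gap of 29 bp between the second and the third. The fourth site at chr2:14306807-14307206 had its midpoint 934 bp beyond the higher end, where it lies inside the neighbouring gene MBAC1, a mitochondrial carrier of basic amino acids.

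All 4 SPL3 sites fall in the intended window whichever end is the gene start. At least 4 DAP intervals in the window occurred at 15.1% of all protein-coding genes, and 37.0% of those genes had 0 ampDAP intervals, as SPL3 did. The exact pattern of SPL3 (0 ampDAP, 4 DAP) was found at 989 protein-coding genes (3.60%) and at none of the other 12 SPL genes. The spacing of the SPL3 sites was set beside all runs of consecutive DAP midpoints in the genome, a measure chosen after the sites had been seen. The first 2 midpoints spanned 305 bp, and 2.72% of 22509 runs of 2 spanned no more. The first 3 spanned 734 bp, matched or undercut by 0.449% of 22504 runs of 3, and all 4 spanned 2169 bp, matched or undercut by 1.09% of 22499 runs of 4. The gene table places a long non-coding RNA gene, AT2G33815, over 1046 bp of the 1072 bp of SPL3, so the midpoints of the second and the third site lie inside both genes.

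**Figure D2:**
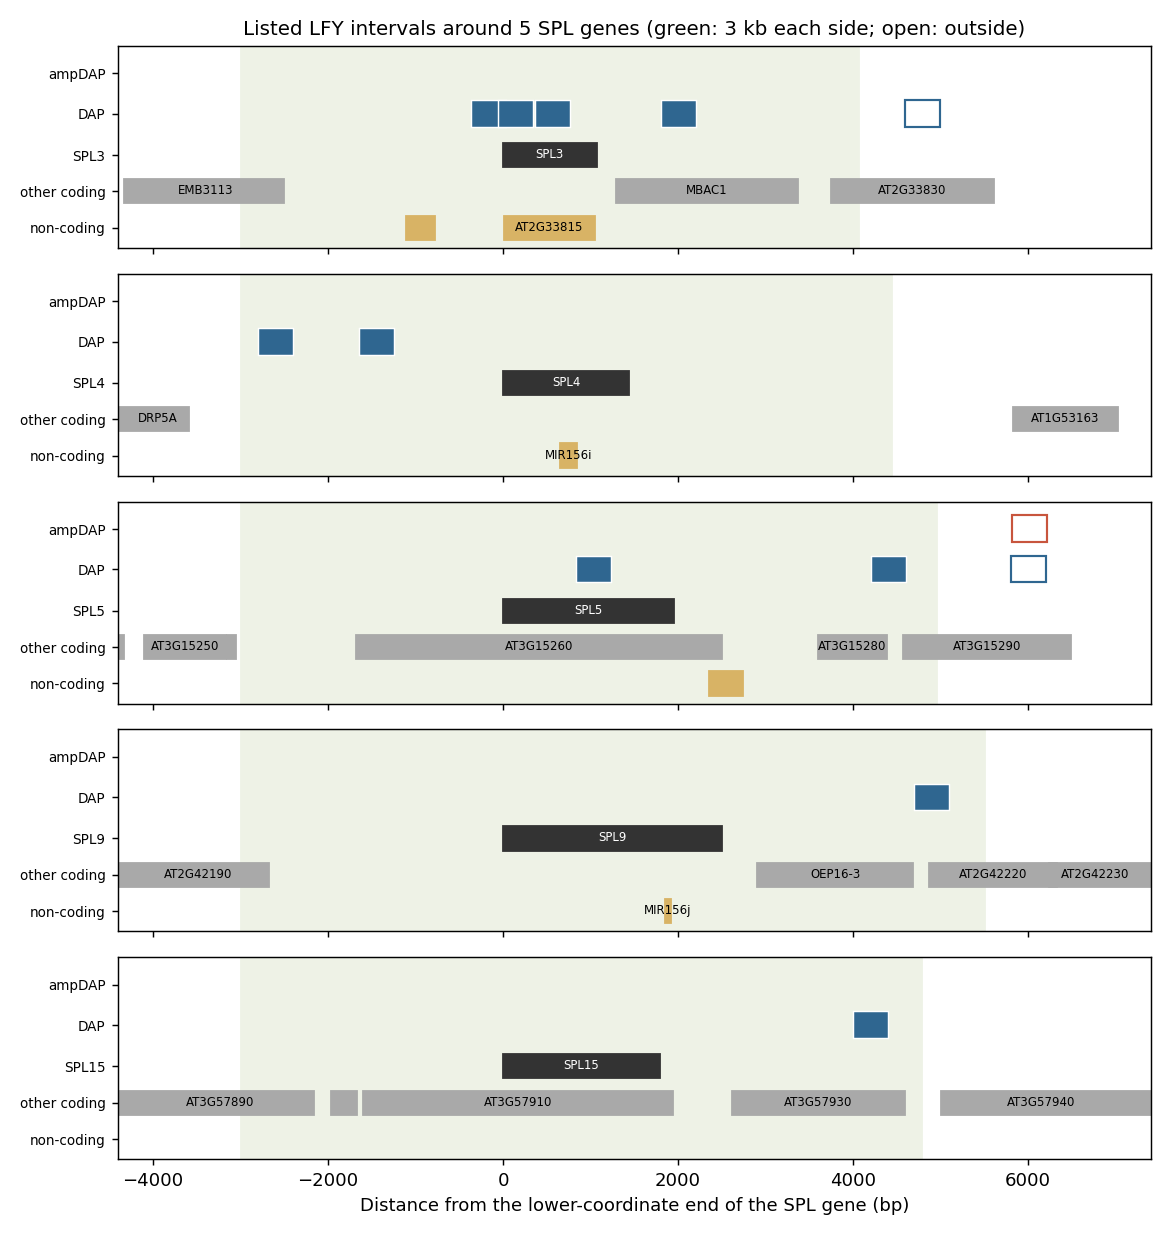
Map of the listed intervals around SPL3, SPL4, SPL5, SPL9 and SPL15, one panel per gene, against the distance in bp from the lower-coordinate end of the SPL gene. Filled boxes are intervals in the window of 3 kb on each side (green), open boxes the nearest intervals outside it, and the lower tracks show the SPL gene, other protein-coding genes and non-coding genes; the ampDAP track is empty in all 5 windows, and 3 of the 4 SPL3 sites sit on or at the gene.

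SPL4 had its sites on one side only. The site at chr1:19803460-19803859 lay 2604 bp and the site at chr1:19804615-19805014 lay 1449 bp outside the lower-coordinate end, 1155 bp apart. Neither overlapped any annotated gene. The first lay nearer to DRP5A, a gene for a dynamin-related protein (984 bp), than to SPL4, and the second nearer to SPL4 than to DRP5A (2139 bp). They meet the intended window only if the lower end is the start of SPL4, and otherwise SPL4 has no site. The table also lists a microRNA gene of the miR156 family, MIR156i, inside the SPL4 body.

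SPL5 had one site inside the gene. It lay at chr3:5141204-5141603, 1038 bp from the lower and 920 bp from the higher end, and meets the intended window in either orientation. SPL5 lies wholly within a longer annotated protein-coding gene, AT3G15260, so this site cannot be assigned to one of the pair. The other DAP site, chr3:5144573-5144972, lay 2449 bp beyond the higher end and 22 bp from the nearest gene, AT3G15280, whose edge it overlapped together with the facing edge of AT3G15290. It counts for SPL5 only if the higher end is the gene start.

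SPL5 was also the gene with an ampDAP interval just outside the window. That interval, chr3:5146181-5146580, had its midpoint 4057 bp from the SPL5 body and 6 bp from the midpoint of a DAP interval at chr3:5146175-5146574, so it was a site listed on both kinds of DNA. The nearest ampDAP midpoints to the bodies of the other 4 genes were 7199 bp from SPL4, 13868 bp from SPL15, 15741 bp from SPL3 and 29644 bp from SPL9. Each of these 5 ampDAP intervals had a DAP midpoint within 10 bp, so the nearest sites on amplified DNA were also listed on native DNA. That was usual for the ampDAP list. Over all its 4882 intervals the median distance to the nearest DAP midpoint was 8 bp, with an upper quartile of 15 bp.

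SPL9 and SPL15 resembled each other, with a single DAP site each, on the higher side and far from the gene. At SPL9 the site was chr2:17591871-17592270, 2399 bp beyond the higher end and 4901 bp from the lower end, with its midpoint inside AT2G42220. At SPL15 the site was chr3:21448242-21448641, 2406 bp beyond the higher end and 4198 bp from the lower end, with its midpoint inside AT3G57930. Both sites count only if the higher end is the start of the SPL gene. Both were isolated, with the next DAP midpoint 10378 bp away at SPL9 and 10134 bp away at SPL15. No DAP interval overlapped the body of SPL4, SPL9 or SPL15, so 2 of the 5 SPL genes had one on the body, against 47.1% of all protein-coding genes. The gene table places another miR156 family gene, MIR156j, inside SPL9, and places SPL15 wholly within AT3G57910. A single DAP interval with no ampDAP interval was found at 5787 protein-coding genes (21.1%) and, among the other SPL genes, at SPL1, SPL2, SPL8 and SPL14. The pattern of SPL4 and SPL5 (0 ampDAP, 2 DAP) was found at 4171 protein-coding genes (15.2%) and at SPL10 and SPL12.

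Of the 10 DAP sites, 5 meet the intended window in either orientation, 4 at SPL3 and 1 at SPL5. The share of all protein-coding genes with a DAP interval within 1 kb of the body, the part of the window that needs no strand, was 63.0%, against 2 of the 5 SPL genes, and with an ampDAP interval 19.9%, against 0 of the 5. By position, 3 midpoints lay inside an SPL gene body, 3 on the lower and 4 on the higher side. Counting any protein-coding gene, 6 of the 10 midpoints lay inside a gene body, against 76.1% of all DAP intervals. For 5 of the 10 sites another protein-coding gene was nearer than the SPL gene.

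None of the 10 DAP sites had an ampDAP midpoint within 200 bp. Of the 21557 DAP intervals in the windows of all protein-coding genes, 20.1% had one, so 2 of 10 would be the like share. The distance to the nearest ampDAP midpoint was 14807 to 16976 bp for the 4 SPL3 sites, 4595 and 5750 bp for the SPL4 sites, 4977 and 1608 bp for the SPL5 sites, 27245 bp for SPL9 and 18066 bp for SPL15. Over all 22514 DAP intervals the median was 5076 bp, with quartiles of 777 and 13240 bp. The SPL3, SPL9 and SPL15 sites, 6 of 10, lay beyond the upper quartile, while those of SPL4 and SPL5 lay around the median or below it. These quartiles include the DAP intervals with an ampDAP midpoint within 200 bp, which none of the 10 sites had. They are therefore lower than for DAP intervals without one. The 4 SPL3 distances are one locus and not independent.

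**Figure D3:**
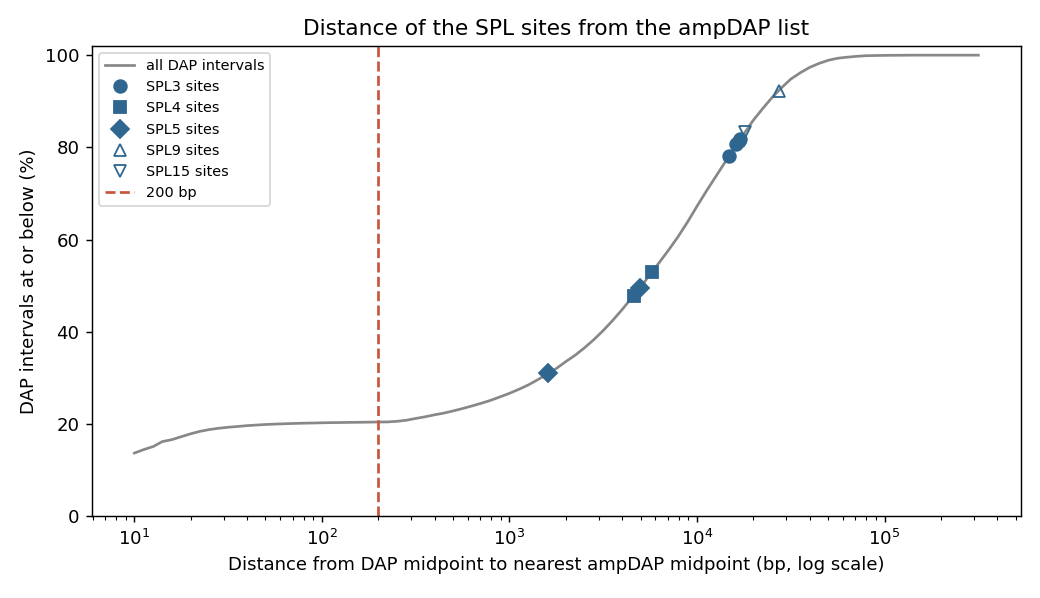
Cumulative share of all DAP intervals (vertical axis, percent) by distance from their midpoint to the nearest ampDAP midpoint (horizontal axis, bp, log scale), with the 10 SPL sites marked on the curve. The dashed line is 200 bp, the distance for a pair; all 10 sites lie to its right, from 1608 bp at SPL5 to 27245 bp at SPL9.

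Of the other 12 SPL genes, 2 had an ampDAP and 9 had a DAP interval, against 32.6% and 82.3% of all protein-coding genes, with 1 DAP interval per gene at the median, against 2 for the 5 genes and 2 for all protein-coding genes. The 2 genes were SPL6 (AT1G69170) and SPL16 (AT1G76580), each with 1 site listed on both kinds of DNA. At SPL6 the ampDAP interval chr1:26007012-26007411 and the DAP interval chr1:26007011-26007410 had midpoints 1 bp apart, inside the gene. At SPL16 the ampDAP interval chr1:28739843-28740242 and the DAP interval chr1:28739831-28740230 had midpoints 12 bp apart, 1075 and 1063 bp outside the gene.

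SPL11 had 0 ampDAP and 3 DAP intervals, and the one at chr1:9503402-9503801, inside its body, also counted for SPL10, its neighbour. SPL12 had both of its DAP intervals and SPL14 its only one inside the gene body. SPL7, a regulator of copper homeostasis, and the near-identical pair SPL13A and SPL13B had no interval of either list in the window. The nearest DAP midpoint lay 27621 bp from SPL13A and 17965 bp from SPL13B. Whether reads can be assigned to one gene of this pair was not tested. Split by regulation, 1 of the 11 SPL genes targeted by miR156, which include the 5 described here, had an ampDAP interval and 9 a DAP interval. Of the 6 that are not targeted, 1 had an ampDAP and 5 a DAP interval. Over all protein-coding genes the shares were 32.6% and 82.3%. Classes of 11 and 6 genes are too small for these counts to show a difference.

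**Figure D4:**
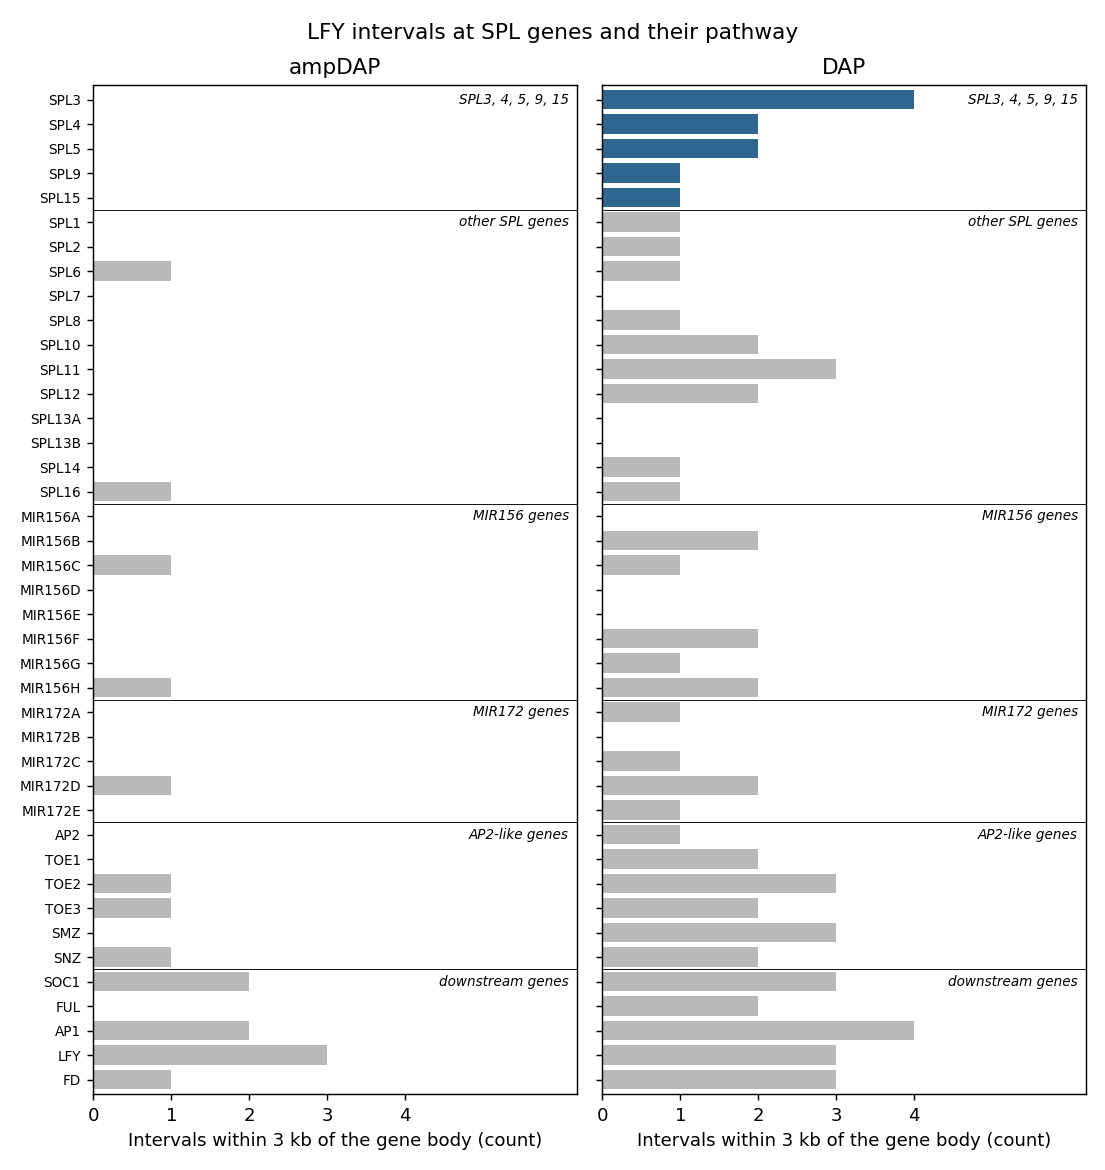
Number of listed intervals within 3 kb of the gene body (horizontal axis) for the 5 SPL genes (coloured) and 36 further genes of the pathway (grey), one bar per gene, for the ampDAP list (left) and the DAP list (right). No ampDAP bar is drawn at SPL3, SPL4, SPL5, SPL9 or SPL15. One is drawn at 2 of the other 12 SPL genes and at 4 of the 5 downstream genes, against 32.6% of all protein-coding genes. The 5 SPL genes and all the lists were chosen with earlier results of these data known.

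Upstream of the SPL genes, the 8 genes MIR156A to MIR156H encode the microRNA that represses them. An ampDAP interval lay near 2 of them and a DAP interval near 5. Over all 326 microRNA genes the shares were 24.5% for ampDAP (19.97 to 29.6%) and 67.2% for DAP (61.8 to 72.3%), so 2 and 5 of 8 are near the background. MIR156C and MIR156H each had a site on both kinds of DNA, with midpoints 5 and 9 bp apart, the MIR156H site 744 bp (ampDAP) and 753 bp (DAP) from the hairpin gene. MIR156H had 2 DAP intervals in all, as did MIR156B and MIR156F with no ampDAP interval, and MIR156G had 1 DAP interval. MIR156A, MIR156D and MIR156E had none in either list. With MIR156i and MIR156j, the genes inside SPL4 and SPL9 that were added after their values were seen and had 0 ampDAP and 1 DAP interval each, the counts were 2 and 7 of 10, and the DAP interval of each is one already counted for its SPL gene.

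Downstream, SPL9 and SPL15 act on MIR172 genes, whose microRNA represses AP2-like flowering repressors. Of the 5 MIR172 genes, 1 had an ampDAP and 4 had a DAP interval, near the shares of 24.5% and 67.2% over all microRNA genes. MIR172D had a shared site with midpoints 2 bp apart, 528 bp (ampDAP) and 530 bp (DAP) from the gene, and a further DAP interval. MIR172A, MIR172C and MIR172E had 1 DAP interval each, and MIR172B, the MIR172 gene best known as an SPL9 target, had none. Of the 6 AP2-like genes, 3 had an ampDAP interval and 6 a DAP interval, against 32.6% and 82.3% of all protein-coding genes. TOE2, TOE3 and SNZ each had 1 shared site, with 3, 2 and 2 DAP intervals in all, while AP2, TOE1 and SMZ had 0 ampDAP and 1, 2 and 3 DAP intervals.

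Of 5 floral integrators and meristem identity genes that SPL proteins act on or with, 4 had an ampDAP interval and 5 a DAP interval, against 32.6% and 82.3% of all protein-coding genes; FUL, like the 5 SPL genes, had no ampDAP interval. SOC1 had 2 ampDAP and 3 DAP intervals, AP1 had 2 and 4, LFY had 3 and 3, FD had 1 and 3, and FUL had 0 and 2. The median over these 5 genes was 2 ampDAP and 3 DAP intervals, against 0 and 2 for the 5 SPL genes and 0 and 2 for all protein-coding genes. At SOC1 both ampDAP sites had a DAP midpoint within 7 and 10 bp, at AP1 within 3 and 8 bp, and at FD within 8 bp. Such closeness was usual, as the upper quartile of this distance over all 4882 ampDAP intervals was 15 bp. Of the 16 ampDAP intervals at the 36 listed genes beyond the 5 SPL genes, 14 had a DAP midpoint within 200 bp. At LFY 1 of the 3 ampDAP intervals had a DAP midpoint within 200 bp, 0 bp away. Another, chr5:24849148-24849547, lay 217 bp from a DAP midpoint, and the remaining one, chr5:24845943-24846342, lay inside the LFY body with the nearest DAP midpoint 3422 bp away. Like the 5 SPL genes and the other lists, this list was drawn up with earlier results of these data known. The counts are descriptions of 2 libraries.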

How the data were processed

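LFY binding to amplified and to native genomic DNA was represented by 1 deposited interval list per kind of DNA (ampDAP and DAP, grouped by the labelled molecule type). Bowtie2, SAMtools, MACS2 and the TAIR10 build are named in the submitters' processing notes, without roles or versions; peak threshold, control and any pooling of replicates are not given in the sources used here. The deposited files hold no count, score or p-value, and every interval is 400 bp wide. Read depth is unknown, so binomial intervals (exact, Clopper-Pearson) cover counting error only. They treat genes as independent, although the windows of neighbouring genes can share a site.

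Genes came from the RefSeq table of TAIR10.1, which has no strand; all 41 listed loci matched. Its nuclear coordinates were set directly against the files. As a check, 76.1% of DAP midpoints lay inside protein-coding genes, 72.8% after a move of 500 bp and 63.4 to 64.0% after 2000 bp, in either direction. An interval belonged to a gene when it overlapped the body or 3 kb on either side by at least 1 bp, and was paired when midpoints lay within 200 bp. Every listed gene with an interval is named, and neighbouring genes where nearer to a site than the SPL gene or sharing its body. The members and lists were chosen with earlier results of these data known. Counting was checked on simulated intervals. No genome sequence was used, so the planned LFY motif search was not run and no sequence is printed. Python 3.11.15, pandas 2.3.3 and scipy 1.17.1 were used.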

Additional observations from a re-analysis of the deposited data

How the results depend on the processing

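The 5 kb, one-sided and nearest-gene alternatives were chosen after seeing the data, because the gene table carries no strand; the others were planned. Of 72 recomputed values 43 stayed near the reported ones, meaning within 1.5 times for a count and within the 95% interval for a share over all genes, which is the narrower bound. The number of ampDAP intervals at the 5 SPL genes was 0 in all windows except 5 kb on each side, where it was 1, at 1 gene, and was paired with 1 DAP interval. Apart from the nearest-gene setting, the other windows lie within the 3 kb window. A count of 0 was therefore fixed there and says nothing about stability. Pairing within 20 bp, within 100 bp or by an overlap of 1 bp left 0 paired sites. With every site at least 1608 bp from an ampDAP midpoint and intervals 400 bp wide, these settings could give no other count. These and the fixed window counts are among the 43 values that stayed. The 10 DAP intervals became 7 with 3 kb on the lower and 1 kb on the higher side, 8 with these turned round, 13 with 5 kb on each side, 5 with 1 kb on each side, 6 with 3 kb on the lower and 8 with 3 kb on the higher side alone, and 5 when each interval went to the nearest protein-coding gene body only (ties kept). The 5 SPL genes with a DAP interval became 2 with 1 kb, 4 with 1 kb on the lower and 3 kb on the higher side or 3 kb on the higher side alone, 3 with 3 kb on the lower and 1 kb on the higher side, 3 with 3 kb on the lower side alone, and 3 by nearest gene. The share of all genes with an ampDAP interval (32.6%) and with a DAP interval (82.3%) was 19.9 and 63.0% with 1 kb, 31.4 and 81.0% with the midpoint in the window, 29.65 and 75.7% over genes of any kind, 43.3 and 90.9% with 5 kb, 26.5 and 74.7% with 3 kb on the lower and 1 kb on the higher side, 26.6 and 74.5% with these turned round, 23.5 and 69.9% with 3 kb on the lower side alone, 23.4 and 69.8% with 3 kb on the higher side alone, and 15.0 and 51.2% by nearest gene.

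A stricter peak threshold was not run because the files hold no score. Windows set by gene start, nearest gene starts and the motif alternatives were not run because they need strand or genome sequence. No paired analysis was possible because the lists stand for 1 library each; leaving out a replicate was likewise not possible.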
